A study of Homo sapiens with 3 samples.

Results

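The 37 genes described here make the chaperones, the protein translocon and the stress signalling of the endoplasmic reticulum (ER), and they were listed by name. The list was chosen by gene function with earlier results of these data known. CALR was selected on measured values, its spread between these 3 arrays. Of the 37 genes, 33 had a probe set with a single gene symbol, out of 11963 genes named on the array. DNAJB11, SYVN1 and SEC61G had none, and the probe set of PDIA5 carried a second symbol, so these 4 genes were not analysed here. All samples were cultures of HT-29, an established line of human colon adenocarcinoma cells, given IFN-γ at 200 U/ml for 24 h. The 3 cultures, called biological replicates by the series, form a single group. Nothing untreated was analysed here, so each value is a level in treated cells and not a response to IFN-γ. All RNA came from whole cultures, in which fewer cells expressing a gene and less of its RNA per cell cannot be told apart.

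Proteins that enter the secretory pathway pass through the SEC61 channel into the ER, where chaperones of the Hsp70 and Hsp90 families, lectins and disulfide isomerases fold them. When unfolded proteins accumulate, the sensors ERN1 (IRE1), EIF2AK3 (PERK) and ATF6 start the unfolded protein response, which raises chaperone and degradation genes through the transcription factors XBP1, ATF6 and ATF4. Colon epithelium uses the same machinery for its many secreted and surface proteins. In cells exposed to IFN-γ it also serves MHC class I molecules, whose loading with peptide requires calreticulin and the isomerase PDIA3.

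Many genes of the unfolded protein response carry the ER stress response element (ERSE), known as a site of ATF6 and the factor NF-Y, or its variant ERSE-II. A larger share of the members than of all promoters held these elements, and the list was made from gene functions for which the elements are known. The search covered 250 bases before and 50 bases after each annotated start, on both strands, in RefSeq promoters of build GRCh38.p14. ERSE was searched as CCAAT, any 9 bases and CCACG, and ERSE-II as ATTGG, any 1 base and CCACG. Promoters were on hand for 36 of the 37 genes. ERSE was found in 8 of these 36 genes (22.2%) and in 25 of 27305 genes overall (0.0916%). ERSE-II was found in 4 of the 36 members (11.1%) and in 19 genes overall (0.0696%). In 9 other ER lists, 98 genes had a promoter, and 1 of these 98 held ERSE and 0 held ERSE-II. A match is a description of letters and not a measured site.

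The upstream stretch of HSPA5, the gene of the Hsp70 chaperone BiP, and that of CALR are shown because HSPA5 is the standard target of the response and CALR had the widest spread of the detected members. Capitals mark the ERSE match, and each stretch is the 250 bases before the start, written 5′ to 3′ on the strand of the gene.
HSPA5, chr9:125241344-125241593, minus strand: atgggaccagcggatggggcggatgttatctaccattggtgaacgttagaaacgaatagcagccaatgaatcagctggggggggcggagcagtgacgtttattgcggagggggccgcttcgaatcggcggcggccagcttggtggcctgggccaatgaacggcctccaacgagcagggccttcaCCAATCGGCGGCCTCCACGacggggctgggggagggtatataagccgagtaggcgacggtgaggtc
CALR, chr19:12938359-12938608, plus strand: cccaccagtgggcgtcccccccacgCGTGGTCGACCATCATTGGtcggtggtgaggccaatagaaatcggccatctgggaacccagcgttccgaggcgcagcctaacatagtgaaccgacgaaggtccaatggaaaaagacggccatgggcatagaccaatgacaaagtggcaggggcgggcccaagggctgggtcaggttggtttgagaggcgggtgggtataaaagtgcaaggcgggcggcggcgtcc

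Each further ERSE match that lay before the whole gene and outside other genes is shown with 20 bases on either side where available, with the match in capitals, so that the shared ends and the free middle can be compared. A match that lies on the other strand reads as CGTGG, 9 bases and ATTGG.
CRELD2, chr22:49918534-49918592, plus strand: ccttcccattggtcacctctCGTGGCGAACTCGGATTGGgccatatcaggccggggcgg
HSP90B1, chr12:103930301-103930359, plus strand: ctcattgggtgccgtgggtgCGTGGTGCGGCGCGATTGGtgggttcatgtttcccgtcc
SERP1, chr3:150546690-150546746, minus strand: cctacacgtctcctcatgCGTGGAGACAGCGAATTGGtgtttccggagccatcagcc
XBP1, chr22:28800583-28800641, minus strand: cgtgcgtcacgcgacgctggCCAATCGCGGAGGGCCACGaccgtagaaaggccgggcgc

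HSP90B1 had a second ERSE further upstream, inside another annotated gene, and the matches of CANX and PDIA6 lay inside those genes, before alternative starts. These 3 are not shown. The ERSE-II matches follow in the same way, with HYOU1 holding 2 of them.
HERPUD1, chr16:56932005-56932055, plus strand: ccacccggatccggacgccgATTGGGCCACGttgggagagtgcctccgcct
HYOU1, chr11:119057254-119057304, minus strand: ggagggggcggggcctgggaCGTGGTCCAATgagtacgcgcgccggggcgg
HYOU1, chr11:119057360-119057410, minus strand: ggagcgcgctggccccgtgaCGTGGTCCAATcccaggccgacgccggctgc
NUCB1, chr19:48900223-48900273, plus strand: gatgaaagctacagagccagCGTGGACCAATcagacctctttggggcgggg
SDF2L1, chr22:21642094-21642144, plus strand: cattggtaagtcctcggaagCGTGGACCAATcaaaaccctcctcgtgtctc

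The UPRE core TGACGTGG, a site of XBP1 and ATF6, was found in 3 members (HYOU1, SEC62 and SSR3), which is 8.33% of the 36 against 0.927% of all genes, and in 8 genes (8.16%) of the other ER lists. In HYOU1 it overlapped the upstream ERSE-II.

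**Figure D1:**
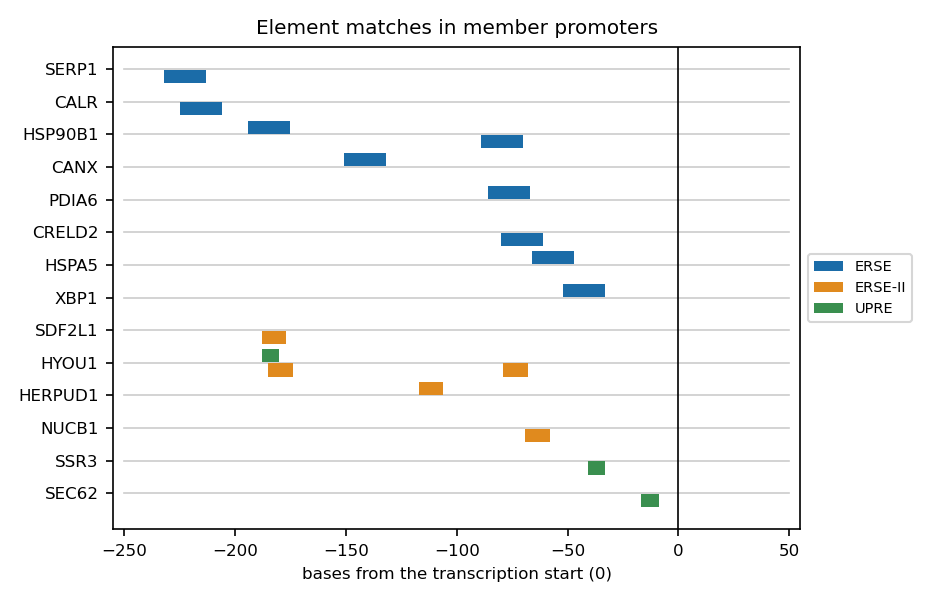
Positions of element matches in member promoters, with bases from the annotated start on the x axis and 1 gene per row. Bars above a line lie on the strand of the gene and bars below it on the other strand, and for CANX 1 of its starts is drawn. The ERSE matches of CRELD2, HSPA5, PDIA6 and XBP1 and the nearer one of HSP90B1 lie within 100 bases of the start, while those of SERP1 and CALR lie over 200 bases upstream.

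Every gene value rests on a re-ordering of the probe set names, since under the deposited names probe sets of one gene gave poorly related signals. Among the 15 members with several probe sets, the mean log2 signals of the first 2 correlated with r = 0.30 under the names as deposited and r = 0.80 after re-ordering. Both are descriptions across genes, not across independent samples. Over 4310 genes the values were 0.19 and 0.60. The order was itself inferred from such agreement in these data, so its higher r is no independent check of the names. The median signal per array was between 137 and 144, and precision is limited by having only 3 arrays. The epithelial label held, since 9 of 9 markers of colon epithelium were detected. Of 36 measured markers of B and plasma cells, fibroblasts, endothelium, T and NK cells and myeloid cells, LYZ and COL1A1 were detected.

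Most of the ER machinery was detected in the IFN-γ-treated cells, and the genes not detected were the 3 sensors of the unfolded protein response, SIL1, DNAJC3 and LMAN1. A gene counted as detected when its log2 signal exceeded the background limit of its array in limma's one-sided test at a Benjamini-Hochberg adjusted p under 0.05 over all genes. That limit was set by 76 genes known from unrelated tissues, at the 95th percentile of their signals, a signal of 195, 218 and 173 on the arrays of replicates 1, 2 and 3. Of the 33 measured members, 27 (81.8%) were detected, beside 42.5% of all 11963 genes. Their adjusted p ran from 7.03e-08 to 0.0131. Without a test, 28 members (84.8%) lay over the limit on every array, as did 45.1% of all genes. The members were listed with earlier results of these data known, so these shares describe the list. The median margin over the limit was 2.82 log2 units for the 33 members, 2.41 for 99 genes of the other ER lists and -0.01 for all genes.

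**Figure D2:**
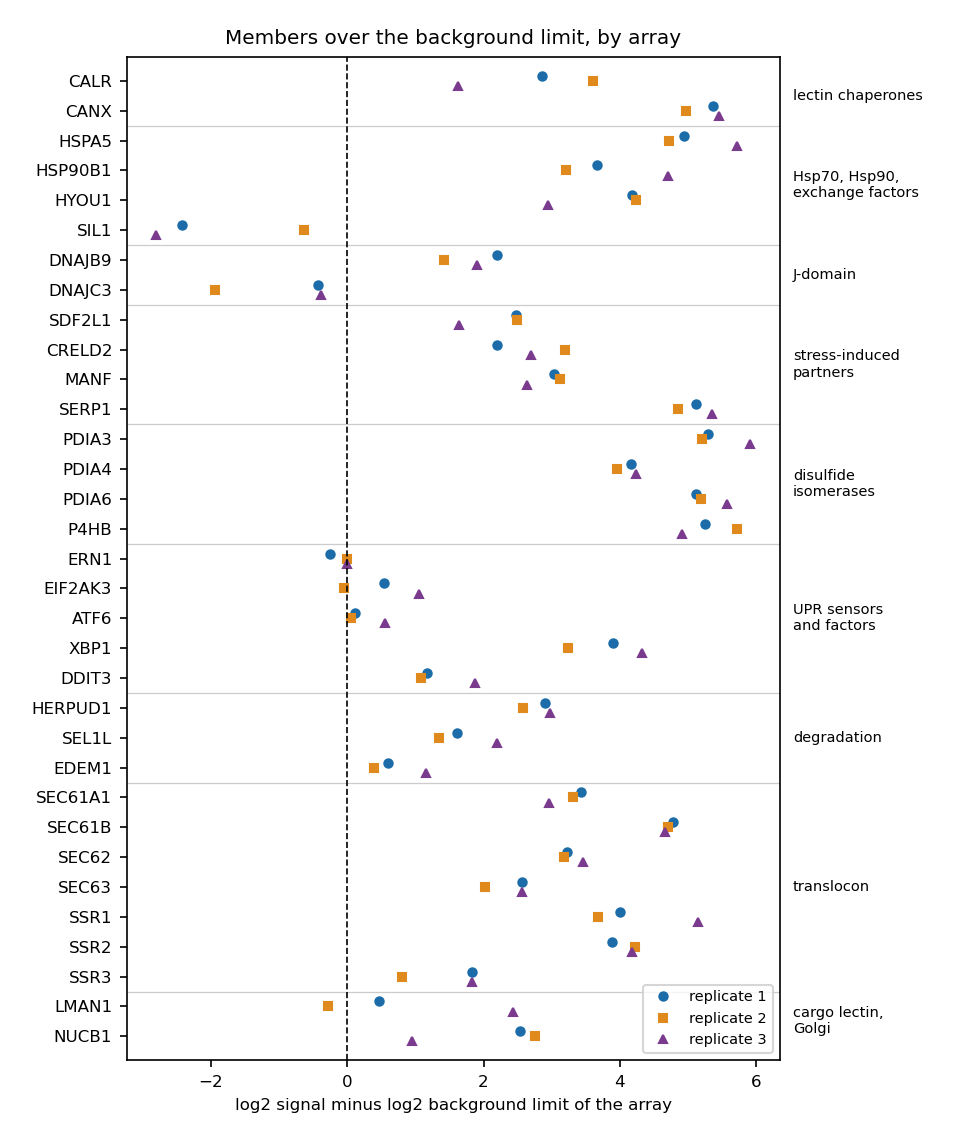
Log2 signal minus the log2 background limit of the array (x axis) for the 33 measured members, with 1 point per replicate and the dashed line at the limit. ERN1, EIF2AK3 and ATF6 sit near the line, DNAJC3 and SIL1 lie left of it on all arrays, and the disulfide isomerases lie over 3 log2 units right of it.

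The lectin chaperones hold newly made glycoproteins during folding. Their membrane-bound form calnexin, CANX, had signals of 8070.2, 6797 and 7576 in replicates 1, 2 and 3. On this probe set the values lay close together, with an SD of 0.13 log2 units, and CANX was 5.26 ± 0.21 log2 units (SE) over the limit (limma adjusted p = 7.03e-08). Its other probe sets had SDs of 0.23 and 0.40 log2 units, with 5073, 4791 and 6489 on one and 2947, 2372 and 4109 on the other, so that replicate 3 was highest there. Calreticulin, CALR, is the soluble form and a partner in class I peptide loading. CALR had 1411, 2652 and 533 in the same cultures. CALR was highest in replicate 2 and lowest in replicate 3, a 4.98-fold range, and still 2.69 ± 0.32 log2 units (SE) over the limit (limma adjusted p = 3.36e-05). The spread of CALR is the value it was chosen for and is given as a description. The other CALR probe sets also had their lowest signal in replicate 3, with 1451, 1028 and 339 on one and 1667, 1759 and 297 on the other.

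HSPA5, which binds hydrophobic stretches and holds the sensors inactive, had signals of 5996, 5734 and 9093. Replicate 3 was high and the other cultures were alike. HSP90B1, the Hsp90 of the ER (GRP94), had 2463, 2022 and 4491 and was likewise highest in replicate 3. That pattern was not shared by its second probe set, at 808, 648 and 512, where replicate 3 was lowest. Both are of the cross-hybridising kind (_x_at), to which related sequences can contribute, so the order of the cultures for HSP90B1 is uncertain. HYOU1, a large Hsp70 relative that exchanges nucleotides on BiP, had 3517, 4093 and 1336, with replicate 3 well below the other cultures. The second exchange factor, SIL1, was not detected, with 36.4, 140.5 and 24.9 on its single probe set, under the limit on all arrays.

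J-domain proteins bring substrates to BiP and start its ATPase. DNAJB9 (ERdj4), which also represses ERN1, had signals of 897, 585 and 644 and was detected at 1.84 ± 0.20 log2 units (SE) over the limit (limma adjusted p = 1.72e-05). Its second probe set gave 103, 62.5 and 158.5, under the limit throughout, so detection rested on 1 of 2 probe sets. DNAJC3 (p58IPK), an inhibitor of eIF2α kinases and a co-chaperone, was not detected, with 144, 56.6 and 133.

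Among the stress-induced partners all 4 were detected. SDF2L1, a partner of the J-domain protein DNAJB11, had signals of 1085, 1229 and 541. MANF, a secreted factor that is retained in the ER with BiP, had 1592, 1899 and 1072. Both were lowest in replicate 3 and highest in replicate 2, as was CALR. CRELD2, an ER-resident protein of the EGF-like class known as a stress target, differed from them, with 891, 1989 and 1125. Replicate 2 was again the highest there, but replicate 1 was the lowest. SERP1 (RAMP4), which binds the translocon, had 6757, 6315 and 7025 on the probe set used (SD 0.08 log2 units). Its other probe sets had wider SDs of 0.43 and 0.35 log2 units, and all 3 were lowest in replicate 2 and highest in replicate 3.

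Protein disulfide isomerases form and exchange disulfide bonds, and all 4 measured ones were detected over 4 log2 units above the limit. PDIA3 (ERp57), the isomerase of the class I loading complex, had signals of 7660.0, 8018 and 10420.1. PDIA6 (P5) had 6761, 7959 and 8260.0. In both the lowest culture was replicate 1 on the probe set used, and the ranges were 1.36-fold and 1.22-fold. That of PDIA6 is of the cross-hybridising kind (_x_at). Its probe set without such a suffix had 3632, 2958 and 5320, lowest in replicate 2 with a 1.80-fold range. The remaining probe sets of PDIA6 had ranges of 1.16-fold, lowest in replicate 3, and 1.42-fold, lowest in replicate 1. The order of the cultures for PDIA6 is therefore uncertain. PDIA4 (ERp72) had the smallest SD of the detected members by the probe set used, 0.05 log2 units, with 3486, 3375 and 3249. Its second probe set varied more, with 1844, 1435 and 1166 (SD 0.33 log2 units), in the same order of cultures. P4HB, the archetypal isomerase and a subunit of prolyl hydroxylase, varied more, with 7433, 11434 and 5229, and its second probe set also had replicate 3 lowest, at 5809.9, 5820 and 3625.

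The sensors were at the limit, while the transcription factors downstream of them were detected. ERN1, the kinase and RNase that splices XBP1 RNA, had signals of 164, 218 and 173, within 0.08 log2 units of the limit on average (margin -0.08 ± 0.23, SE; limma adjusted p = 1). EIF2AK3, which phosphorylates eIF2α, had 284, 211 and 359.9 and missed the threshold (limma adjusted p = 0.0814), with 2 of 3 arrays above the limit. Without replicate 2, the only array below the limit, EIF2AK3 passed (limma adjusted p = 0.00359). Nothing is read from that pass. The low array had been removed, and the fit used a spread pooled over genes, not that of EIF2AK3. The margin of EIF2AK3 was 0.50 log2 units with replicate 1 left out and 0.25 with replicate 3 left out, and neither fit called it. ATF6, cut in the Golgi to release a transcription factor, had 211, 227 and 253, and 111, 10.7 and 107 on its second probe set. On the first, all its arrays were above the limit, by 0.24 ± 0.22 log2 units (SE), and the test did not pass (limma adjusted p = 0.333). These results do not show that the sensors were absent, because a probe set near the limit cannot measure a low transcript. XBP1 had 2913, 2061 and 3453, and the single probe set does not tell its spliced from its unspliced form. DDIT3 (CHOP), a transcription factor of prolonged stress, had 437, 459.7 and 634, with replicate 3 the highest in both genes. DDIT3 lay 1.37 ± 0.21 log2 units (SE) over the limit (limma adjusted p = 0.00021).

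ER-associated degradation returns misfolded proteins to the cytosol, and its 3 measured members were detected. HERPUD1, a scaffold of the ligase complex and a known target of the response, was steady with signals of 1459.9, 1302 and 1362. SEL1L, the partner of the ligase SYVN1, had 595, 554 and 795. Only that 1 of its 4 probe sets lay over the limit on all arrays. EDEM1, a lectin that picks out misfolded glycoproteins, had 294, 287 and 386. It was the detected member nearest the limit, at 0.72 ± 0.22 log2 units (SE; limma adjusted p = 0.0131), and leaving out replicate 3 ended the call (limma adjusted p = 0.0662).

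All 7 measured genes of the translocon were detected. SEC61A1, the pore subunit, had signals of 2106, 2161 and 1348, and the small subunit SEC61B had 5338, 5697 and 4379.9. Both were lowest in replicate 3 and highest in replicate 2. SEC62 and SEC63 help proteins enter after translation, and they had 1829.8, 1978 and 1904 for SEC62 and 1149, 884 and 1022 for SEC63. Of the other SEC63 probe sets, one lay over the limit with 293, 323 and 455 and one under it with 77.6, 101 and 83.5. The 3 SSR genes encode subunits of the TRAP complex, which assists the insertion of some signal sequences. SSR1 had 3116, 2777 and 6150.5, SSR2 had 2886, 4072 and 3128, and SSR3 had 692, 380.0 and 618. The highest culture was thus a different one for each of these 3 subunits, replicate 3 for SSR1, replicate 2 for SSR2 and replicate 1 for SSR3. On all 4 probe sets of SSR1 replicate 2 was lowest and replicate 3 highest, with ranges from 1.22-fold to 2.21-fold.

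LMAN1 (ERGIC-53), a lectin that carries cargo from the ER towards the Golgi, and NUCB1, a calcium-binding protein of the Golgi known to restrain the cleavage of ATF6, varied in opposite ways. LMAN1 had signals of 271, 179 and 933. Replicate 3 was 5.20-fold over replicate 2, and with that spread the gene did not pass (limma adjusted p = 0.0843). Fits with the spread pooled over genes called LMAN1 without replicate 1 (limma adjusted p = 0.00415) and without replicate 2 (limma adjusted p = 8.08e-10). The fit without replicate 3 did not call LMAN1 (limma adjusted p = 0.756), and its SEs also drew on the spread of each gene. These p-values therefore do not rest on the same kind of spread. The second probe set of LMAN1 gave 443, 166 and 556, again lowest in replicate 2 and highest in replicate 3. NUCB1 had 1131, 1472 and 335. Replicate 3 was lowest by a 4.40-fold range, and the second NUCB1 probe set had 604, 906 and 192.

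The members did not share one order of the cultures. Of the 27 detected members, 9 were lowest in replicate 3 (33.3%, beside 45.2% of all 5086 detected genes), 12 in replicate 2 (44.4%, beside 36.1%) and 6 in replicate 1 (22.2%, beside 18.7%). The highest culture was replicate 1 for 6 (22.2%, beside 29.1%), replicate 2 for 11 (40.7%, beside 37.2%) and replicate 3 for 10 (37%, beside 33.7%). Highest in replicate 2 and lowest in replicate 3 were CALR, HYOU1, SDF2L1, MANF, P4HB, SEC61A1, SEC61B and NUCB1, which is 29.6% of the detected members beside 28.7% of all detected genes. The opposite order held for HSPA5, HSP90B1, SERP1, XBP1, SEL1L, EDEM1 and SSR1, 25.9% beside 23.4%. Both shares are near those of all detected genes and are no result about the members.

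**Figure D3:**
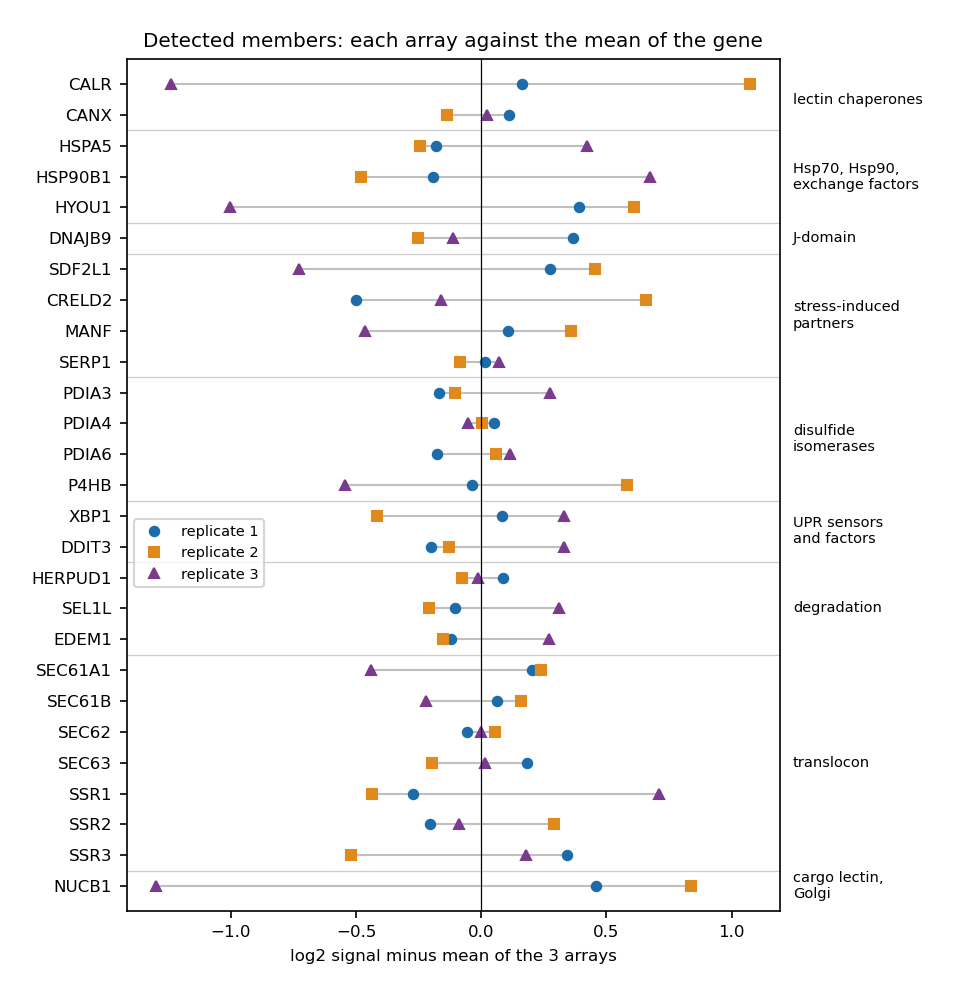
Log2 signal of each array minus the mean of the 3 arrays (x axis) for the 27 detected members, with 1 symbol per replicate and a grey line over the range. Replicate 3 lies far left for NUCB1, CALR and HYOU1 and far right for SSR1 and HSP90B1.

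Members with the stress elements were found on both sides of this split. All 8 members with ERSE and all 4 with ERSE-II were detected, as were 14 of the 20 measured members with neither, beside 42.5% of all genes. Of the 8 with ERSE, 5 were highest in replicate 3, beside 33.7% of all detected genes, and 5 were lowest in replicate 2, beside 36.1%, while CALR was lowest in replicate 3. Of the 4 with ERSE-II, HYOU1, NUCB1 and SDF2L1 were lowest in replicate 3, beside 45.2% of all detected genes, and HERPUD1 was lowest in replicate 2. The SD of log2 signal ran from 0.08 to 1.17 for members with ERSE (median 0.37), from 0.08 to 1.14 for those with ERSE-II (median 0.76) and from 0.05 to 0.62 for the 14 detected members with neither (median 0.28). The median over all detected genes was 0.29. The highest array was at least 2-fold over the lowest in 6 of the 12 members with an element and in 2 of these 14, beside 14.9% of all detected genes. These groups are small and include CALR, chosen for its spread, and NUCB1, whose spread was known when the list was made. No test was made between them, and nothing is read from these medians and counts.

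The spread between cultures was wide for a few members and small for others. Detected members had a median SD of 0.32 log2 units, with quartiles of 0.19 and 0.58, against 0.29 for all detected genes, with quartiles of 0.18 and 0.43. Without replicate 3 the median over members was 0.16 and the SD of CALR was 0.64, each over 2 arrays. The highest array was at least 2-fold over the lowest for 8 detected members (29.6%), beside 14.9% of all detected genes. Nothing is read from that count, because CALR was chosen for its spread and the spread of NUCB1 was known when the list was made. The other 6 were HSP90B1, HYOU1, SDF2L1, CRELD2, P4HB and SSR1. Only 0.295% of all detected genes had a larger SD than CALR, and 97.2% had a larger SD than PDIA4, by the probe sets used. For CALR that share restates the spread it was chosen for and is no result.

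**Figure D4:**
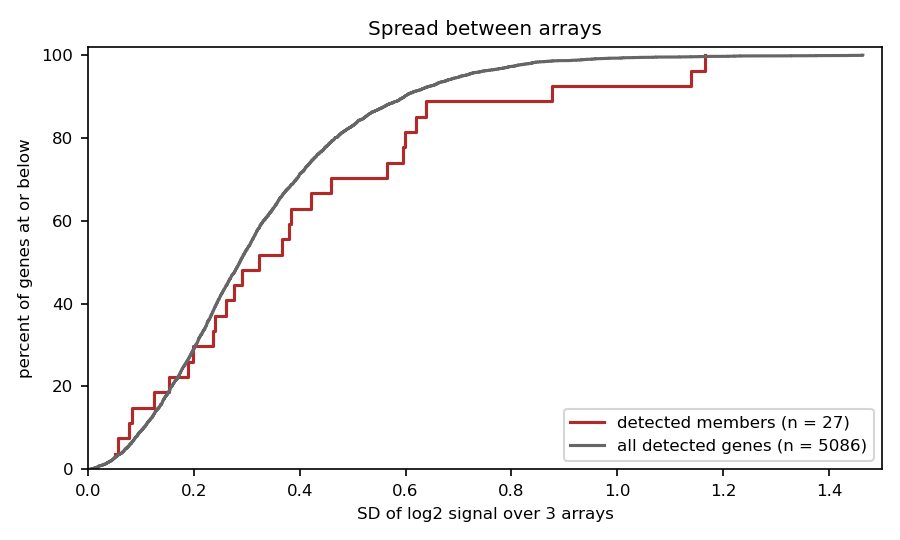
Percent of genes at or below a given SD of log2 signal over the 3 arrays (x axis), for the 27 detected members and all 5086 detected genes. The curve of the members lies to the right above an SD of about 0.2 and ends at 1.17, the value of CALR. CALR was chosen for its spread.

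Probe sets of one member agreed on the order of the cultures for some genes and not for others. Of 58 probe sets of members, 46 lay over the limit on all arrays. Of 11 members with at least 2 such probe sets, 7 had the same lowest culture on each of them, namely CALR, CANX, SERP1, PDIA4, P4HB, SSR1 and NUCB1. HSP90B1, PDIA6, SEC62 and SEC63 did not. The highest culture was the same on each of them for 5 of the 11, SERP1, PDIA4, P4HB, SSR1 and NUCB1, while it differed for CALR and CANX. The same counts over all genes and all probe sets are not given here. These counts are therefore descriptions and no result about the members. PDIA6 had replicate 1 lowest on 2 probe sets, replicate 2 on 1 and replicate 3 on 1. Of the 33 measured members, 15 were read from a probe set ending in _s_at, shared by several transcripts, and 3 (CALR, HSP90B1 and PDIA6) from one ending in _x_at.

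**Figure D5:**
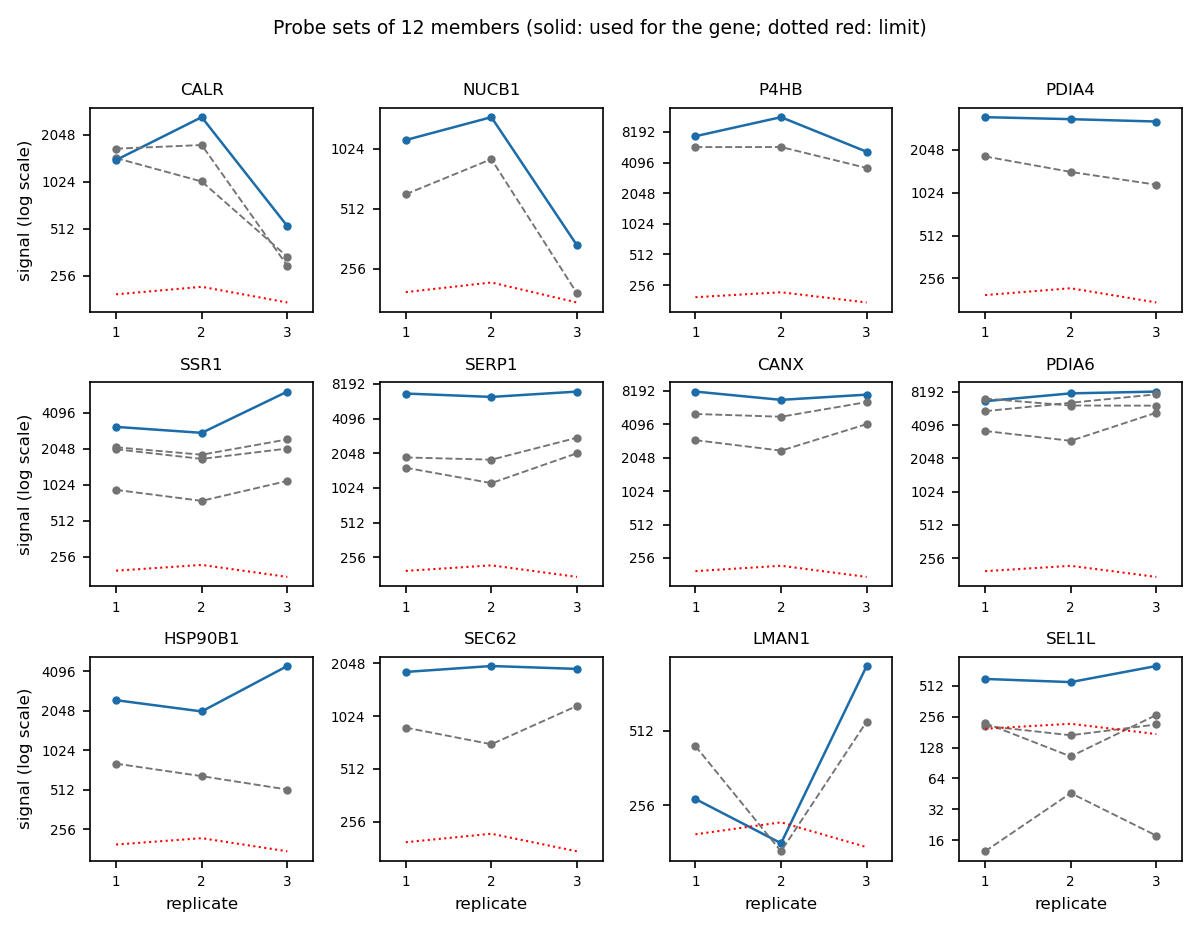
Signal on a log axis in replicates 1, 2 and 3 for all probe sets of 12 members, with the solid line for the probe set used, dashed lines for the others and the dotted line for the limit. Lines only join values of 1 probe set, and those of CALR, NUCB1 and P4HB are lowest in replicate 3, while the lines of HSP90B1 diverge there.

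The rest of the ER pathway was described from 9 lists of other genes, of which 80 of 99 measured genes (80.8%) were detected, beside 42.5% of all genes. The oligosaccharyltransferase, which attaches N-glycans beside the translocon, was detected for 6 of 6 genes, and the signal recognition particle, its receptor and signal peptidase for 11 of 11. RPN2, a transferase subunit, was steady with signals of 10289, 9549.5 and 10135, whereas MAGT1, an oxidoreductase of the complex, had 477, 248 and 793. SRPRA, the receptor of the particle, had 3363, 3107 and 3296, and SRP9, which arrests translation, had 6328, 4597 and 8999.7. Replicate 3 was highest and replicate 2 lowest for MAGT1 and SRP9.

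Export from the ER and retrieval to it gave 15 of 16 detected genes, with SEC24D, a cargo adaptor of the COPII coat, as the exception at 138, 97.2 and 160.0. Its relative SEC24C had 609.6, 679 and 309.6, and the coat GTPase SAR1A had 1883, 1829 and 2036. Other degradation genes gave 14 of 15. The ligase RNF5 was not detected, with 17.7, 25.7 and 26.7, and the mannosidase MAN1B1 had 638, 919.5 and 351, while EDEM2 had 456, 517 and 443.

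Thiol oxidoreductases outside the list were detected for 8 of 11 genes. ERO1A, the oxidase that recharges P4HB, had signals of 526, 259 and 192 and did not pass (limma adjusted p = 0.0657). The isoenzyme ERO1B, known from endocrine cells, had 8.57, 23.1 and 1.91, and PDIA2, known from pancreas, had 37.5, 42.9 and 32.3. These last values were under the limit throughout. The membrane protein TMX2 barely varied with 3338, 3277 and 3244, whereas the sulfhydryl oxidase QSOX1 had 620.2, 942 and 349.

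Glucosidases and lectins of the calnexin cycle gave 4 of 6 detected genes. UGGT1, which tags incompletely folded glycoproteins for another round, had signals of 415, 360.5 and 439. Its relative UGGT2 did not pass, with 213, 187 and 202, and the testis lectin CLGN had 24.0, 16.4 and 31.8. MOGS, the glucosidase that starts trimming, had 414, 532 and 178, so replicate 3 was low there as in CALR. Peptidyl-prolyl isomerases gave 5 of 7, with FKBP10 at 15.4, 32.4 and 32.0 and FKBP14 at 169, 157 and 267 not detected. FKBP2 had 739, 1164 and 770.5, and FKBP9 had 470.1, 653 and 478.

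Other regulators and targets of the unfolded protein response gave 11 of 16 detected genes. Like the sensors among the members, several regulators lay near the limit without passing. ATF6B had signals of 192, 345 and 234, ERN2, the epithelial relative of ERN1, had 218, 235 and 182, and the protease MBTPS2, which cuts ATF6, had 167, 179.9 and 219. CREB3L2 had 236, 210.1 and 184, and PPP1R15A (GADD34), which restores translation, had 261, 306 and 214 (limma adjusted p = 0.0933). CHAC1, a target of the ATF4 branch that degrades glutathione, was detected with 907, 1082 and 424, as was WFS1, a regulator of ER calcium and ATF6, with 395, 437 and 362.

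Calcium handling had the lowest share of these 9 lists, at 6 of 11 genes (54.5%). Not detected were the pump ATP2A3 at 62.6, 109 and 44.7, the channels ITPR1 at 22.2, 40.2 and 7.66 and ITPR2 at 92.4, 71.9 and 111, and the store sensor STIM1 at 158, 183 and 104. NUCB2, the relative of NUCB1, had 101.0, 134 and 214 and was not detected either. RCN1, a calcium-binding protein of the ER, had 1437, 1339 and 1319.5, and CALU had 1575, 1311 and 785, with replicate 3 the lowest for both.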

How the data were processed

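RNA of 3 IFN-γ-treated HT-29 cultures was labelled and hybridised to Affymetrix arrays. Each probe set has a deposited intensity on a linear scale. The submitters' processing notes name MAS5 and Affymetrix Expression Console 1.1; the background step and scaling target are not given in the sources used here. Means without the highest and lowest 2% of values were 500.3 on each array, so signals were used as deposited.

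Names were re-ordered before use. After 6 empty probe sets were dropped, 15 values were left unnamed, followed by 100 consecutively numbered probe sets, 493 with lower numbers, 21622 others in file order and 47 unnamed values. The order was inferred from the agreement of probe sets of one gene in these data, so its correlation is no independent check. Probe sets with 1 symbol in the platform annotation were kept (19071, naming 11963 genes), and each gene was read from its brightest probe set by mean log2 signal.

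Log2 intensity minus the limit was tested against 0 with limma 3.58.1 under R 4.3.3, with a trend of the variance on the mean and the limit taken as known. With 1 group there was no comparison between conditions. Alternatives were the name order, the probe set chosen, the limit, the scaling, an offset, a filter on dim genes, the trend and leaving out each replicate. On simulated arrays of 11963 genes, genes set 1 log2 unit over the limit were called in 92% of cases and genes 1 unit under it in 0%. These set genes had the spreads of detected genes, and undetected genes outside the background list were held well under the limit. The simulation therefore says nothing on calls of variable genes near the limit. Promoters came from RefSeq tables of GRCh38.p14; protein sequences were not used here. Named genes were all members and, per other list, the steadiest and most variable detected gene and the undetected ones where a list had at most 5. The members and lists were chosen with earlier results of these data known. A further promoter element was searched and its result is not reported here. Scanner files were not used here.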

Additional observations from a re-analysis of the deposited data

How the results depend on the processing

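The count of 27 detected members was between 26 and 30 under every alternative tried except 2 and was 26 to 29 when 1 replicate was left out. The fits without replicate 1, without replicate 2 and with markers of other cell types as background genes used a spread pooled over genes. Their counts of 28, 29 and 26 members therefore do not take the spread of each member into account. The share of all genes detected moved too. It was 34.8% with markers of other cell types as background genes (26 members) and 47.6% with the limit at the 90th percentile (30 members). With the filter on dim genes it was 78.4% of the 6662 genes kept, beside 29 of 31 members. Under the names as deposited, 2 members were detected, 2 lay over the limit on all arrays and 0 detected members were lowest in replicate 3, with 378 genes detected overall. The limit was set anew from the background genes under those names, so the limit and the values of the members both changed. Without probe sets ending in _x_at or _s_at, 15 of 21 members still measured were detected, 17 lay over the limit on all arrays and 2874 of 8369 genes (34.3%) were detected; fewer genes were tested and some were read from other probe sets. Leaving out 1 replicate gave 4675 to 5067 detected genes and 28 to 30 members over the limit on the remaining arrays. The median SD was then 0.16 to 0.42 and the SD of CALR 0.64 to 1.64. The lowest SDs are those without replicate 3, and 2 arrays give less precise SDs. Replicate 3 was the lower of 2 arrays for 12 of 28 detected members without replicate 1 and for 14 of 29 without replicate 2. Counted the other way, 2358 of the 5086 genes detected with all 3 arrays were higher in replicate 3 than in replicate 2, as were 15 of the 27 detected members. Replicate 3 was higher than replicate 1 for 2143 of these genes and for 13 of the 27 members. As counts of the higher array, they are not to be set beside the 12 of 28 and the 14 of 29. Counts over 2 arrays are not comparable with the 9 over 3 arrays.

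Of 33 members, 25 kept their side of the limit and of the threshold under each alternative they could be tested in, margins under other name orders not being computed. The margin changed sign for ERN1, to 0.24 with the median over probe sets, 0.074 without the suffixed probe sets and 0.31 with the limit at the 90th percentile. ATF6 had -0.53 with the median, -0.13 with the limit at the 99th percentile and -0.18 with markers of other cell types as background genes, and it passed with the limit at the 90th percentile (0.63, limma adjusted p = 0.0168). DNAJB9 had -0.79 and SEC63 had -1.01 without the suffixed probe sets. EIF2AK3 and LMAN1 passed under several alternatives, EDEM1 missed under 3 and SEL1L with the median. The cause was not tested. Quantile normalization, an offset of 50 and a fit without the variance trend left 27 to 28 members detected. No paired analysis was possible because the series has 1 group.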
